A study of Mus musculus with 34 samples.

Results

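Macrophages taken from MC38 tumors were compared with macrophages taken from LLC tumors. The comparison rests on 8 of the 34 libraries of the series, picked out by title. They are the 4 titled as macrophages of MC38 tumors and the 4 titled as macrophages of LLC tumors. These libraries and the gene lists below were chosen with earlier results of these data known, so the lists are not independent of the data. MC38 is a mouse colon adenocarcinoma line and LLC is the Lewis lung carcinoma line, and both grew in mice of the C57/Bl6 strain. The labels mark all of these cells as taken in vivo and give them no treatment. They call the cells macrophages and name no surface markers for them, so a gate on Sca1, the antigen encoded by Ly6a, is given only for the monocytes. The other in vivo groups, 4 libraries each, were monocytes of MC38 tumors gated as Ly6C+ CD88+ Sca1+, monocytes of LLC tumors gated as Ly6C+ CD88+ Sca1-, and Ly6C+ monocytes from the spleens of mice with each tumor. The labels give no age of the mice, no days after tumor injection, no transgene or deleted gene, and no word on whether replicates were separate mice or pools. The p-values therefore measure the spread between libraries, which may be technical. That spread was estimated over all 24 in vivo libraries. A standard error (SE) given below is thus not the scatter of the macrophage libraries alone. Each tumor is 1 cell line, so tumor type, line and site of origin cannot be told apart.

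Macrophages are tissue phagocytes that clear dead cells and debris, present peptides to T cells and remodel matrix. In tumors many of them arise from blood monocytes that enter the tissue and mature there. Type I interferons, and interferon gamma from T and NK cells, act on receptors that activate STAT proteins, and these drive antiviral genes, guanylate binding proteins and antigen presentation. Interleukin 4, hypoxia and tumor products are known to drive other programs, such as arginase, scavenger receptors, fibronectin and glycolysis.

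The macrophage libraries held 14579232 to 24600975 estimated counts and 14130 to 15659 genes with a count. Genes of macrophages were present in all of them. Among 12 marker genes fixed for the label, 10 are macrophage genes, and each of these had over 40 CPM (the count of a gene per 1e+06 counts of its library, scaled by TMM, a method that corrects for library composition) in every library. Markers of other cells were mixed. Cd3e and Cd3g of T cells, Pax5 of B cells, Tek, Emcn and Cldn5 of endothelium, and Epcam and Krt19 of epithelium were below 1 CPM in every library. Some other members of the same lists were higher than that and differed between the groups: Klrk1, Cd79b, Pecam1 and Kdr were higher in MC38 and Cdh1 was higher in LLC macrophages. Of 13 T and NK markers tested 7 were called higher, and the endothelial markers summed to 154.9 to 189.4 CPM in MC38 against 23.7 to 42.1 CPM in LLC libraries. Car3, a carbonic anhydrase in the list of fat and muscle markers, was at 0.199, 5.26, 0.717 and 43.6 CPM in the MC38 and 0.234, 9.61, 0.265 and 0.388 CPM in the LLC libraries. It was highest in MC38 replicate 4, and LLC replicate 2 also lay above its group members. Whether fat or muscle tissue was its source was not tested. MC38 replicate 4 also differed most from its 3 group members gene by gene (chi-square of 43.8 to 66.6 per degree of freedom, against 10.5 to 16.4 among the other 3). Adipoq, which encodes the fat hormone adiponectin, was at most 6.02 CPM.

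Differences between the macrophages were spread over much of the transcriptome. Of 13200 genes tested, 2962 were higher in MC38 macrophages and 3018 lower (edgeR quasi-likelihood test with Benjamini-Hochberg adjustment, adjusted p under 0.05). These are 22.4% and 22.9% of all genes tested, the background against which each count below is read. A change beyond 2-fold was called for 1132 genes higher (8.58%) and 791 lower (5.99%), 14.6% in all. The libraries of the groups did not overlap for 5778 genes, or 43.8%, and 38.7% were both called and without overlap. The median log2 difference of all genes was -0.0026, and 49.5% of the called genes were higher.

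**Figure D1:**
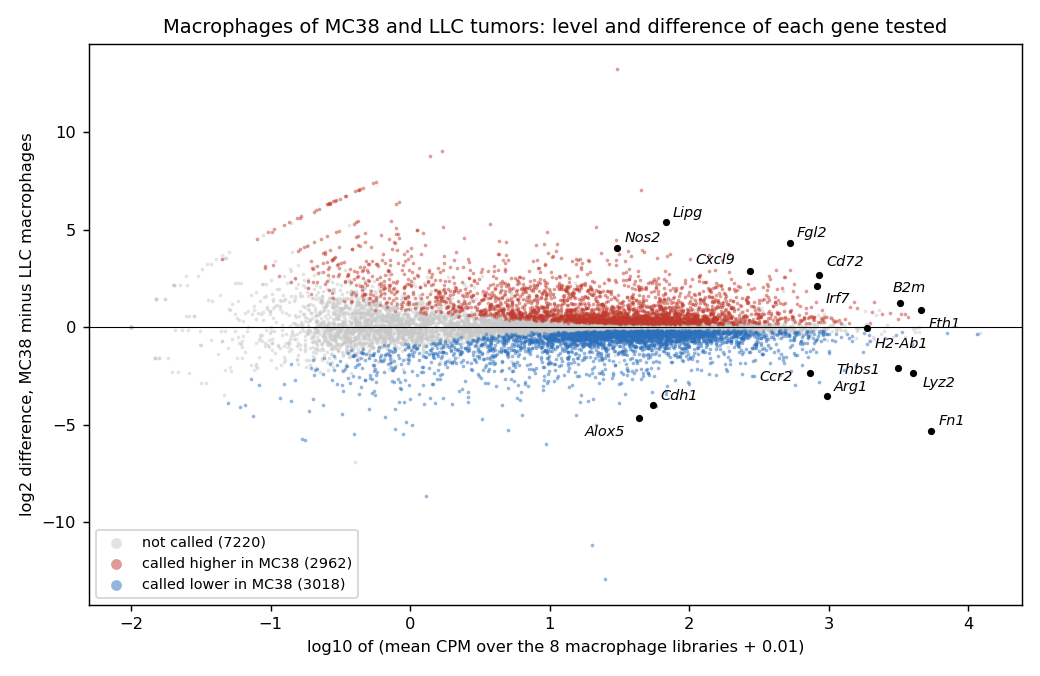
The log2 difference between MC38 and LLC macrophages (vertical axis) is plotted for each of 13200 genes against the log10 of its mean CPM over 8 libraries plus 0.01 (horizontal axis), with called genes in color. Fn1 stands out among high genes at -5.32, while Irf7 and Cd72 lie among the genes called higher.

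Fn1, which encodes fibronectin, a matrix glycoprotein that cells bind through integrins, was among the 15 largest falls of annotated genes with at least 10 CPM in LLC and no overlap of libraries. It stood at 262, 269, 208 and 319 CPM in the MC38 libraries and 10272, 11679.5, 10115 and 10159.7 CPM in the LLC libraries. The groups were far apart, and the lowest LLC library held many times the highest MC38 library (log2 difference -5.32 ± 0.13 (SE), adjusted p = 2.71e-19). In monocytes of the 2 tumor types the levels were 477 against 11018 CPM (log2 difference -4.53), and spleen monocytes had 2706 CPM in mice with MC38 and 3973 CPM in mice with LLC tumors. The difference was more negative in macrophages than in monocytes, with an interaction term of -0.79 ± 0.16 on the log2 scale (adjusted p = 0.0011). On GRCm38, Fn1 (Entrez Gene ID 14268), a protein-coding gene, spans positions 71585473 to 71653280 of chromosome 1.

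Other matrix genes were lower as well. In the list of matrix and matrix remodeling genes, 4 of 33 members tested were higher and 17 lower, with a median of -0.62. Thbs1, which encodes thrombospondin 1, an adhesive glycoprotein, stood at 1118, 1316, 1132 and 1063 CPM in the MC38 libraries and 4203, 5840, 4409.5 and 5729.6 CPM in the LLC libraries (log2 difference -2.12 ± 0.56 (SE), adjusted p = 0.00394). Vcan, the proteoglycan versican, was at 15.1 against 122 CPM (log2 difference -3.02 ± 0.25), and Emilin2, an elastic fiber glycoprotein, at 224 against 713 CPM (-1.67 ± 0.09). Some genes of coagulation went the same way, while Procr and Fgl2 (both below) were higher. F10, clotting factor X, was at 24 against 170.4 CPM (-2.83 ± 0.18), F13a1, the clotting factor XIII A chain, at 66 against 297 CPM (-2.17 ± 0.14), and Thbd, the anticoagulant receptor thrombomodulin, at 22.1 against 75.1 CPM (-1.77 ± 0.11). Mmp9, a gelatinase that degrades collagen IV, was also lower, at 13.1 against 31.5 CPM (-1.25 ± 0.26). The 4 members called higher were Mmp2, Mmp13, Serpinb6b and Procr, named here after their values were seen. Their number was 1 or 2 without any single MC38 replicate, 1 without LLC replicate 2 or 3, and 7 with only the macrophage groups in the model.

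Interferon genes formed the opposite block. Irf7, the transcription factor that amplifies type I interferon production, stood at 1335, 1458, 1295 and 1193 CPM in the MC38 libraries and 298, 268, 340.2 and 332 CPM in the LLC libraries. The lowest MC38 library was above the highest LLC library (log2 difference 2.09 ± 0.12 (SE), adjusted p = 3.66e-13). In tumor monocytes it was at 2778 against 789.9 CPM, a log2 difference of 1.81, and the test of the difference between the cell types did not pass (0.28 ± 0.16, adjusted p = 0.275). Spleen monocytes had 304 and 338 CPM in mice with MC38 and LLC tumors. Irf7 (Entrez Gene ID 54123), a protein-coding gene, spans positions 141263183 to 141266499 of chromosome 7.

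Among ligands, receptors and factors of the interferon pathway, 16 of 26 members tested were higher and 5 lower (median 0.70). Ifih1, which encodes the cytosolic RNA sensor MDA5, stood at 255, 288, 262 and 287 CPM in the MC38 libraries and 79.8, 85.1, 81.5 and 75.3 CPM in the LLC libraries (log2 difference 1.76 ± 0.09 (SE), adjusted p = 3.11e-14). Ddx58, which encodes the RNA sensor RIG-I, was at 248 against 82.4 CPM (1.59 ± 0.08). Tlr9, the endosomal receptor for unmethylated DNA, was at 154 against 32.5 CPM (2.24 ± 0.14). The receptor chain Ifngr1, which binds interferon gamma, was lower in MC38 macrophages, at 169, 144, 174 and 148 CPM in the MC38 libraries and 358, 373, 383 and 426 CPM in the LLC libraries (log2 difference -1.28 ± 0.09 (SE), adjusted p = 1.65e-11). The 2 interferon genes of the list, named after their values were seen, were each below 1 CPM on average, with Ifnb1 at 0.575 against 0.345 CPM and Ifng at 0.145 against 0.034 CPM.

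Of the type I interferon response list, 51 of 52 members tested were higher and 1 lower, with a median of 1.65 against 0.97 in monocytes. Ifi44 rose the most, from 5.84, 6.16, 5.83 and 6.85 CPM in the LLC libraries to 72.2, 90.1, 89.6 and 102 CPM in the MC38 libraries (log2 difference 3.85 ± 0.24 (SE), adjusted p = 3.33e-11). The mitochondrial nucleotide kinase Cmpk2 was at 199.7 against 33.1 CPM (2.59 ± 0.12), and Xaf1, an interferon-induced gene linked to cell death, at 143 against 34.8 CPM (2.04 ± 0.09). Ifi204 and Ifi211, genes of the interferon-inducible DNA-binding family on chromosome 1, were at 861 against 243 CPM (1.83 ± 0.08) and 676 against 174 CPM (1.96 ± 0.08). Parp9, a partner of the ubiquitin ligase gene Dtx3l, was at 235 against 75.3 CPM (1.64 ± 0.07). The 1 member that was lower, Ifitm6, an interferon-inducible transmembrane gene named after its value was seen, was at 4.17 against 15.2 CPM (-1.87 ± 0.17). The difference between tumors was more positive in macrophages than in monocytes for 28 members and more negative for 1, where the background over all genes is 6.25% and 8.27%. Without MC38 replicate 4 the macrophage counts were again 51 and 1.

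Genes linked to interferon gamma were higher in like manner. In that list 26 of 30 members tested were higher and 0 lower, with a median of 2.19. The immunity-related GTPases Irgm1 and Irgm2, which act on membranes around intracellular microbes, were at 343 against 71.5 CPM (2.26 ± 0.10) and 164 against 37.6 CPM (2.12 ± 0.09). Their relatives Igtp and Tgtp2 stood at 244 against 59.7 CPM (2.04 ± 0.14) and 334 against 47.8 CPM (2.81 ± 0.20), the latter uncertain because its near-identical neighbor Tgtp1 can share reads. The guanylate binding proteins Gbp3 and Gbp9 were at 196 against 55.1 CPM (1.83 ± 0.13) and 153 against 53.3 CPM (1.52 ± 0.11), and Gbp2b at 21.4 against 1.16 CPM (4.27 ± 0.55). Cxcl9, the chemokine that draws T cells through CXCR3, stood at 385, 359.5, 468 and 687 CPM in the MC38 libraries and 57.8, 42, 60.2 and 97.8 CPM in the LLC libraries (log2 difference 2.88 ± 0.31 (SE), adjusted p = 1.89e-07). Nos2, the inducible nitric oxide synthase, was at 56.7, 65.7, 48.7 and 59.3 CPM in the MC38 libraries and 2.38, 5.19, 1.59 and 4.46 CPM in the LLC libraries. No LLC library came near the MC38 libraries for Nos2 (log2 difference 4.07 ± 0.62 (SE), adjusted p = 2.4e-05).

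The sequences before the start of these genes are described here. The lists were made of interferon-linked genes, so the share of matches in them does not depend on the tumors. Whether the matches have a part in the differences was not tested. RefSeq windows of 250 bases before to 50 bases after the start (GRCm38.p6) were searched on both strands for GAAANNGAA, the core of the interferon-stimulated response element. It was found in 9.11% of the windows of 10446 tested genes. In the type I interferon list it was found in 24 of 40 genes with a window (60%), and in the interferon gamma list in 13 of 19 (68.4%). Among all genes called higher the share was 13.2%, and among those called lower 7.11%. The gamma-activated site TTCNNNGAA was in 8.31% of tested windows, in 25% of the type I list and in 42.1% of the interferon gamma list. The 2 patterns can overlap. These shares are descriptions, and a match is not evidence that a factor binds. The stretches upstream of 5 genes whose matches overlap each other are shown, 5′ to 3′ on the gene's strand with the matches in capitals (matches on the other strand appear as their reverse complement), along with that of Irf2, which holds a match without a called difference. Oas3, Bst2, Socs1 and Irf2 were named after their sequences and values were seen.
Oas3: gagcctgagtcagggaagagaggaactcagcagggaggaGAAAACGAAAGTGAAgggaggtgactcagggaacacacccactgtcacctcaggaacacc
Bst2: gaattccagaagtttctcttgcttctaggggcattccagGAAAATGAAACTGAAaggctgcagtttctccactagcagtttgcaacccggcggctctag
Irgm1: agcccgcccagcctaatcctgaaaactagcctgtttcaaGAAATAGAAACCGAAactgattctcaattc
Gbp3: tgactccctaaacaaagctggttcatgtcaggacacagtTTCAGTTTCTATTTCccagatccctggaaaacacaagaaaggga
Socs1: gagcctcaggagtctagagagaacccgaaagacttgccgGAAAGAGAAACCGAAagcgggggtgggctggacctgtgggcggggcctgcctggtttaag
Irf2: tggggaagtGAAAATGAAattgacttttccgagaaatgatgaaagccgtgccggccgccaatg
On GRCm38.p6 the stretches lie at chr5:120777675-120777773 (minus strand), chr8:71537543-71537641 (minus), chr11:48871421-48871489 (minus), chr3:142559961-142560043 (plus), chr16:10785560-10785658 (minus) and chr8:46739495-46739557 (plus), all upstream of the annotated start. Oas3, a sensor of double-stranded RNA, was at 335 against 85.1 CPM (1.98 ± 0.11). Bst2, which encodes tetherin, was at 333 against 93.9 CPM (1.83 ± 0.12), and Socs1, the feedback inhibitor of JAK kinases, at 36.4 against 8.53 CPM (2.1 ± 0.24). Irf2, a relative of Irf7 that can repress these elements, was at 127 against 144 CPM without passing the test (-0.18 ± 0.09, adjusted p = 0.0984). 

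Antigen presentation split by class. In the list of MHC class I and peptide loading genes, which serve CD8 T cells, 22 of 23 members tested were higher and 0 lower (median 1.08). H2-K1, a class I heavy chain, stood at 3196, 3134, 3021 and 2598 CPM in the MC38 libraries and 1125, 989, 1251 and 1455 CPM in the LLC libraries (log2 difference 1.31 ± 0.09 (SE), adjusted p = 2.26e-11). B2m, the class I light chain, was at 4499.5 against 1913 CPM (1.23 ± 0.07), and Nlrc5, the transactivator of class I genes, at 231 against 88.9 CPM (1.38 ± 0.11). Tapbp, which encodes tapasin of the loading complex, was at 541 against 257 CPM (1.07 ± 0.08), and the nonclassical H2-T23 at 385 against 132 CPM (1.55 ± 0.11). H2-Q8 had no count in any LLC macrophage library and 64, 68, 53.8 and 55.5 CPM in the MC38 libraries. Set against 3 counts summed over the LLC libraries, the limit a count of 0 allows, it was at least 1.63e+03-fold higher. Reads of H2-Q8 may be shared with its near-identical neighbor H2-Q6, which makes both uncertain, like other H2 genes.

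Class II genes, which present peptides to CD4 T cells, differed little between the tumors. Of 11 class II list members, none was called higher and 2 were lower (median -0.04). At an unadjusted p under 0.05 the edgeR test also gave 0 higher, and DESeq2 called 0 higher. H2-Ab1, a class II beta chain, stood at 1945, 1401, 2105 and 1921 CPM in the MC38 libraries and 1648, 1367, 2181 and 2527 CPM in the LLC libraries. These groups overlapped (log2 difference -0.07 ± 0.16 (SE), adjusted p = 0.767), as did those of H2-Eb1 (1537 against 1575 CPM, -0.04 ± 0.17) and Cd74, the invariant chain (3969 against 4798 CPM, -0.27 ± 0.15). Without LLC replicate 2 the Cd74 difference was -0.39 and passed (adjusted p = 0.033, against a range of 0.033 to 0.571 over the alternatives). Ciita, the transactivator of class II genes, was at 40.6, 42.6, 55.5 and 50.5 CPM in the MC38 libraries and 80.6, 78.5, 89.2 and 108 CPM in the LLC libraries. Every MC38 macrophage library was below every LLC library for Ciita (log2 difference -0.91 ± 0.19 (SE), adjusted p = 0.000368), and H2-Ob, a modulator of peptide loading, was at 3.25 against 9.87 CPM (-1.61 ± 0.21).

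Monocytes of the 2 tumors differed in class II genes more widely. All 11 members were higher in the Sca1+ MC38 monocytes (median 1.5), where 26.8% of all genes tested were called higher. H2-Ab1 was at 3076 against 574 CPM in monocytes (log2 difference 2.42), Ciita at 119 against 42.8 CPM (1.47). For 9 of the 11 members the difference between tumors was more negative in macrophages than in monocytes, against 8.27% of all genes. The monocyte groups also differed in the sort on Sca1, which cannot be told apart from cell type here. The interaction term was -2.49 ± 0.23 for H2-Ab1 (adjusted p = 1.45e-07), -2.74 ± 0.24 for H2-Eb1 (adjusted p = 7.26e-08) and -2.39 ± 0.26 for Ciita (adjusted p = 2.91e-06). Markers of dendritic cells, which also express class II genes, summed to 355 to 398 CPM in MC38 and 389 to 403 CPM in LLC macrophages over 16 genes, and their part in these values was not tested.

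**Figure D2:**
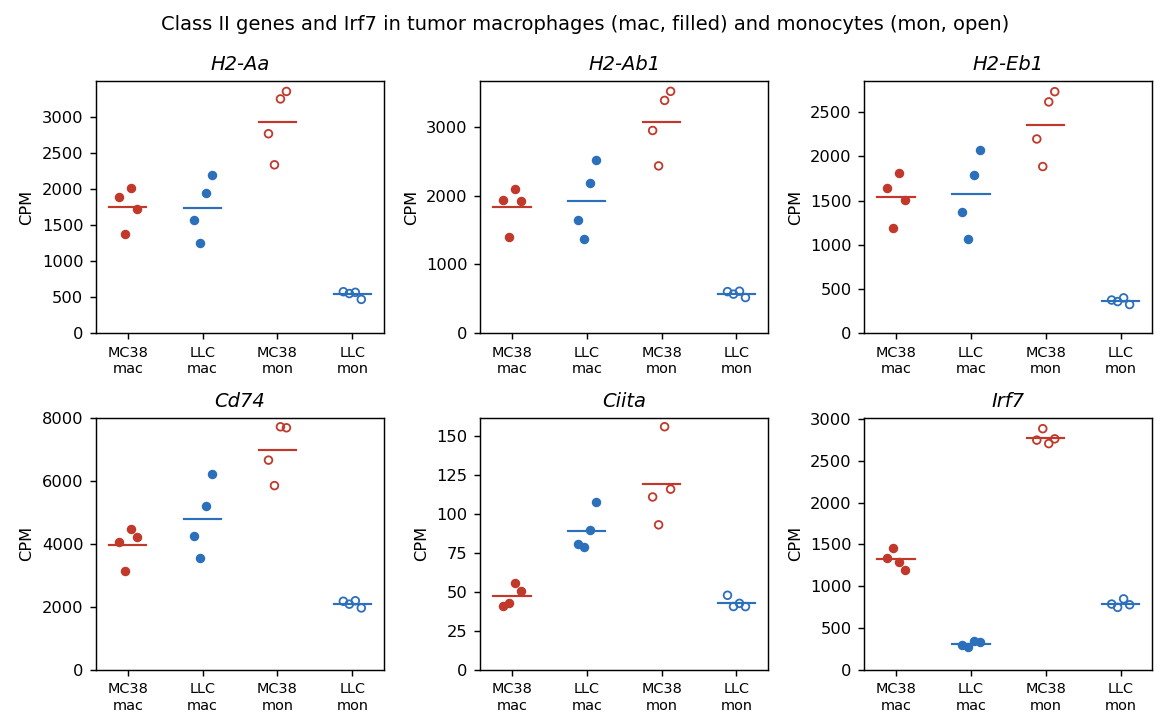
CPM (vertical axis, from 0) of 4 class II genes, their transactivator Ciita and Irf7 is shown for single libraries (points) and group means (lines), with macrophages filled, monocytes open, MC38 in red and LLC in blue. The libraries of the macrophage groups overlap for H2-Aa, H2-Ab1, H2-Eb1 and Cd74 while those of the monocyte groups do not, and Irf7 is higher on the MC38 side in both cell types.

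Ligands that act on T cells were mostly higher in MC38 macrophages. In the costimulation and checkpoint list 14 of 26 members tested were higher and 5 lower (median 0.50). Cd274, which encodes the checkpoint ligand PD-L1, stood at 353, 377, 350.4 and 406 CPM in the MC38 libraries and 70.8, 78.8, 78.8 and 125 CPM in the LLC libraries (log2 difference 2.07 ± 0.23 (SE), adjusted p = 2.12e-07). Cd40, the receptor for T cell help, was at 103 against 36.4 CPM (1.5 ± 0.12), Tnfsf10, which encodes TRAIL, at 32.1 against 4.77 CPM (2.75 ± 0.12), and Lgals9, which encodes galectin 9, at 299 against 175 CPM (0.78 ± 0.09). Cd47, the signal against phagocytosis, was at 214 against 121 CPM (0.83 ± 0.09). Cd80, a CD28 ligand, was lower, at 28.5, 26.9, 24.9 and 32.6 CPM in the MC38 libraries and 60.3, 67.8, 58.8 and 65.9 CPM in the LLC libraries (log2 difference -1.16 ± 0.12 (SE), adjusted p = 2.59e-08). Cd72, a surface lectin best known on B cells, stood at 1528, 1462, 1388 and 1448 CPM in the MC38 libraries and 242, 213, 250.2 and 224 CPM in the LLC libraries (log2 difference 2.65 ± 0.81 (SE), adjusted p = 0.0115), among the 10 largest rises in CPM.

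Chemokines divided. Of 25 chemokine list members tested 9 were higher and 9 lower (median 0.69). Cxcl9 (above) and Ccl5, which draws T cells, were higher, Ccl5 at 70.2 against 5.68 CPM (3.66 ± 0.26). Ccl6 and Ccl9, ligands of CCR1, were lower, with Ccl6 at 154, 169.6, 181 and 244 CPM in the MC38 libraries and 884, 904, 673 and 1091 CPM in the LLC libraries (log2 difference -2.25 ± 0.15 (SE), adjusted p = 1.49e-11) and Ccl9 at 260.4 against 1016 CPM (-1.96 ± 0.09). Cxcl14 was at 11 against 53.6 CPM (-2.29 ± 0.26), and the platelet chemokine Ppbp at 1.11 against 11.4 CPM (-3.35 ± 0.42). Cxcl3, a neutrophil attractant, was at 5.98 against 17.9 CPM (-1.57 ± 0.42). Ccl24, an eosinophil attractant, was at 1.67, 3.52, 2.63 and 4.07 CPM in the MC38 libraries and 6.0, 5.19, 5.23 and 29.1 CPM in the LLC libraries, with LLC replicate 4 far above the others (log2 difference -1.91 ± 0.62 (SE), adjusted p = 0.0173). Without that library the Ccl24 difference shrank to -0.87 and missed the threshold (adjusted p = 0.21, the highest over the alternatives, whose lowest was 0.00926). It also missed it without MC38 replicate 1 (adjusted p = 0.0584).

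Receptors for these signals were more often lower than higher. Of 18 chemokine and colony stimulating factor receptors 4 were higher and 9 lower. Ccr2, the receptor by which monocytes leave marrow and enter tissue, stood at 244, 239, 222 and 245 CPM in the MC38 libraries and 1194, 1606, 1088 and 1033 CPM in the LLC libraries (log2 difference -2.37 ± 0.12 (SE), adjusted p = 6.83e-14). Csf2ra, the alpha chain of the GM-CSF receptor, was at 254 against 478 CPM (-0.91 ± 0.09), and Csf1r, the receptor on which macrophage survival depends, at 1099.8 against 1835 CPM (-0.74 ± 0.09). The formyl peptide receptors Fpr1 and Fpr2 were higher, at 27.3 against 6.13 CPM (2.14 ± 0.23) and 73.5 against 11.8 CPM (2.62 ± 0.17), as were the G-CSF receptor Csf3r at 139 against 58.6 CPM (1.25 ± 0.11) and Cxcr3, the receptor for Cxcl9, at 9.17 against 0.463 CPM (4.36 ± 0.40).

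Among NF-kappaB inflammatory genes and cytokines, 13 of 32 members tested were higher and 5 lower (median 0.17). Il10, an anti-inflammatory cytokine, was at 26.9, 26.5, 28.8 and 31.1 CPM in the MC38 libraries and 2.49, 2.53, 2.38 and 2.58 CPM in the LLC libraries, with the groups well apart (log2 difference 3.5 ± 0.39 (SE), adjusted p = 2.69e-07). Il18bp, which neutralizes interleukin 18, was at 107 against 9.21 CPM (3.54 ± 0.30), Il15 at 24.4 against 9.28 CPM (1.39 ± 0.12), and Il27 and Ebi3, the chains of interleukin 27, at 7.46 against 2.14 CPM (1.84 ± 0.22) and 56.5 against 22.8 CPM (1.31 ± 0.11). Trem1, a receptor that amplifies inflammation, was lower at 43.8 against 234 CPM (-2.42 ± 0.23). The number called lower ran from 3 without LLC replicate 4 to 8 with only the macrophage groups in the model.

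Genes of alternative activation were more often lower than higher in MC38 macrophages, with Arg1 among the falls. In the alternative activation list 3 of 30 members tested were higher and 15 lower (median -0.60). Arg1, the arginase that competes with Nos2 for arginine, stood at 170.5, 153, 138 and 147 CPM in the MC38 libraries and 1378, 1663, 1364 and 2688 CPM in the LLC libraries. The lowest LLC library was far above the highest MC38 library (log2 difference -3.54 ± 0.70 (SE), adjusted p = 0.000367). Slc7a2, an arginine transporter, was at 11 against 60.9 CPM (-2.46 ± 0.26), the scavenger receptor Msr1 at 483 against 786 CPM (-0.70 ± 0.10), and Irf4 and Klf4, factors of alternative activation, at 3.43 against 14.5 CPM (-2.06 ± 0.16) and 221 against 656 CPM (-1.57 ± 0.14). The 3 members called higher were Arg2, the other arginase, Odc1 and Retnla, named after their values were seen. With only the macrophage groups in the model 5 were higher. Retnla, a resistin-like protein often taken as an alternative activation marker, was at 45.3, 57.9, 79 and 65.9 CPM in the MC38 libraries and 9.04, 10.9, 2.98 and 11.3 CPM in the LLC libraries (log2 difference 2.84 ± 0.64 (SE), adjusted p = 0.00124), against the direction of Arg1. Arg1 (Entrez Gene ID 11846) is a protein-coding gene at positions 24915207 to 24927470 of chromosome 10.

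**Figure D3:**
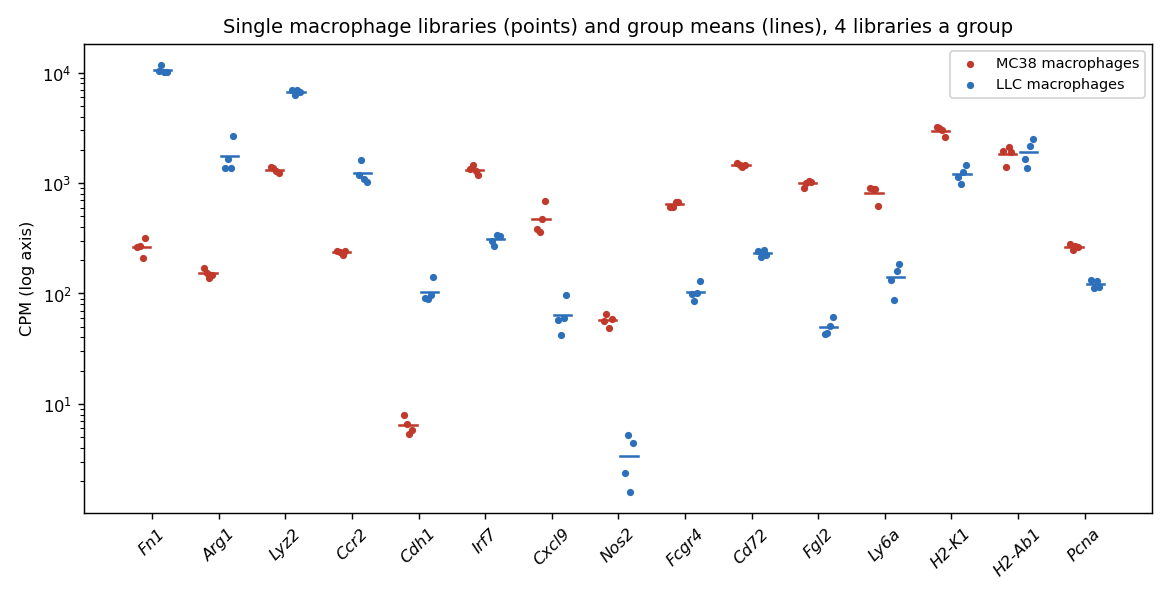
CPM of 15 genes (log axis) is shown for single macrophage libraries (points, MC38 red and LLC blue) with group means (lines). The groups do not overlap for 14 of the genes, with Fn1, Arg1, Lyz2, Ccr2 and Cdh1 higher in LLC and the others higher in MC38, and they overlap for H2-Ab1. The genes were picked for display, and some were named under rules that required no overlap, so that count is no separate result. Over all genes tested 43.8% did not overlap.

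Markers of macrophages themselves were not uniform. In the macrophage identity list 13 of 36 members tested were higher and 11 lower (median 0.28), and with only the macrophage groups in the model 20 were higher. Adgre1, which encodes F4/80, stood at 879.5, 964, 788 and 754 CPM in the MC38 libraries and 429.5, 428, 407 and 347 CPM in the LLC libraries (log2 difference 1.07 ± 0.11 (SE), adjusted p = 1.46e-08). Aif1, which encodes the actin-binding protein IBA1, was at 563 against 152 CPM (1.89 ± 0.15), and Cd68, a lysosomal glycoprotein, at 940.4 against 773 CPM (0.28 ± 0.08). Itgax and Itgam, the integrin chains CD11c and CD11b, went in opposite directions, at 613 against 211 CPM (1.54 ± 0.12) and 1309 against 2416 CPM (-0.88 ± 0.09). Mertk, the receptor for dying cells, was at 62.8 against 48.5 CPM without passing (0.37 ± 0.38, adjusted p = 0.456; 0.00613 with only the macrophage groups in the model). Vcam1, the ligand of integrin VLA-4, stood at 52.8, 68.8, 75.5 and 77.5 CPM in the MC38 libraries and 4.09, 6.53, 2.19 and 5.1 CPM in the LLC libraries (log2 difference 3.92 ± 0.27 (SE), adjusted p = 1.44e-10).

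C1qa, C1qb and C1qc, the chains of the complement starter C1q, were higher in every MC38 library than in any LLC library without passing the test. C1qa stood at 2992, 2717, 3029 and 3037 CPM in the MC38 libraries and 1679, 1440.3, 1741 and 1545 CPM in the LLC libraries (log2 difference 0.88 ± 0.61 (SE), adjusted p = 0.263). C1qb was at 2622 against 1696 CPM (adjusted p = 0.295) and C1qc at 2311 against 1319.5 CPM (adjusted p = 0.175). With only the 2 macrophage groups in the model, which takes no spread from the monocyte and spleen groups, the differences were called at adjusted p = 6.34e-07, 2.06e-05 and 9.07e-07, and over the other edgeR alternatives the adjusted p was 0.242 to 0.371, 0.269 to 0.423 and 0.158 to 0.277. In the complement list as a whole 6 of 20 members tested were higher and 4 lower (median 0.94), or 12 higher of 18 in that smaller model. Cfb, complement factor B, stood at 935, 948, 926 and 883 CPM in the MC38 libraries and 128, 99.3, 132 and 133 CPM in the LLC libraries (log2 difference 2.91 ± 0.21 (SE), adjusted p = 2.22e-10). C3, the central complement protein, was at 466 against 117 CPM (1.99 ± 0.12). C5ar1, which encodes CD88, was lower at 266 against 438 CPM (-0.72 ± 0.14).

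Fc receptors for immunoglobulin G, which let macrophages take up antibody-coated targets, moved in opposite directions. Fcgr4, an activating receptor, stood at 609, 611, 671 and 679 CPM in the MC38 libraries and 98.2, 84.7, 102 and 129.9 CPM in the LLC libraries (log2 difference 2.63 ± 0.17 (SE), adjusted p = 1.38e-11). Fcgr1, the high-affinity receptor, was at 910.3 against 455 CPM (1.0 ± 0.13), and Fcer1g, the signaling chain they share, at 1144 against 630.1 CPM (0.86 ± 0.09). The inhibitory receptor Fcgr2b and the activating Fcgr3 were lower, at 654 against 983 CPM (-0.59 ± 0.11) and 504 against 660.5 CPM (-0.39 ± 0.08). Of the 6 members tested, Fcgrt, the neonatal receptor, was the 1 that did not pass (63.2 against 74.8 CPM).

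Cell cycle genes were higher throughout their list. All 40 members tested were higher in MC38 macrophages (median 1.86). The clamp Pcna, which holds DNA polymerase, stood at 278, 247, 268 and 266 CPM in the MC38 libraries and 132, 112, 129.7 and 115 CPM in the LLC libraries (log2 difference 1.12 ± 0.10 (SE), adjusted p = 7.71e-10). The replicative helicase genes Mcm4 and Mcm7 were at 96.8 against 35.7 CPM (1.44 ± 0.10) and 97.8 against 31.7 CPM (1.62 ± 0.14), and Cdc45, which joins that helicase, at 19.9 against 4.49 CPM (2.14 ± 0.21). The mitotic genes Aurkb, a kinase, and Prc1, an organizer of the spindle midzone, were at 26.7 against 6.6 CPM (2.01 ± 0.17) and 45 against 8.43 CPM (2.42 ± 0.22). A higher share of dividing cells and more RNA of these genes per cell cannot be told apart in bulk RNA.

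Sterol genes were lower in MC38 macrophages. In the cholesterol synthesis and uptake list 2 of 25 members tested were higher and 18 lower (median -0.53). Sqle, squalene epoxidase, stood at 13.7, 11.2, 11.5 and 11.2 CPM in the MC38 libraries and 34.9, 35.1, 37.7 and 33 CPM in the LLC libraries (log2 difference -1.56 ± 0.09 (SE), adjusted p = 6.64e-13). Fdft1, squalene synthase, was at 16.8 against 31.5 CPM (-0.91 ± 0.08), and Srebf2, the factor that drives these genes, at 75.1 against 157 CPM (-1.07 ± 0.10). Without LLC replicate 1, without LLC replicate 3, with no filter on low counts and with a stricter one, 1 was higher. In monocytes 18 of the 25 were lower and 1 higher, where the background is 22.1% and 26.8%, and the median was -1.2. For 12 members the difference was more positive in macrophages than in monocytes, and for none more negative. That of Sqle was 0.80 ± 0.13 (adjusted p = 0.000104).

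Lipid efflux genes divided. In that list 10 of 27 members tested were higher and 8 lower (median 0.05). These are 37.0% and 29.6%, against 22.4% and 22.9% of all genes tested. Nr1h3, which encodes the sterol receptor LXR alpha, was at 119.9, 139.6, 115 and 119 CPM in the MC38 libraries and 34.4, 33.9, 32.7 and 35.6 CPM in the LLC libraries (log2 difference 1.85 ± 0.13 (SE), adjusted p = 2.45e-11). Abcg1, a cholesterol exporter, was at 322 against 112 CPM (1.52 ± 0.09), and Pparg, a fatty acid receptor, at 75.7 against 10.4 CPM (2.86 ± 0.23). Rxra, the partner of both receptors, was lower at 22.1 against 57.9 CPM (-1.39 ± 0.08), as were Scd2, a desaturase, at 47.8 against 148 CPM (-1.63 ± 0.09) and Arl4c, a small GTPase and LXR target, at 209 against 453 CPM (-1.12 ± 0.10). Lipg, endothelial lipase, which acts on phospholipids of HDL, stood at 134, 142, 140.3 and 111 CPM in the MC38 libraries and 3.35, 2.57, 2.52 and 4.26 CPM in the LLC libraries (log2 difference 5.38 ± 0.48 (SE), adjusted p = 1.89e-08).

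Lysosomal and lipid-associated macrophage genes also split, in that 13 of 36 members tested were higher and 8 lower (median 0.11). These are 36.1% and 22.2%, the latter near the background of 22.4% higher and 22.9% lower. The cathepsins Ctss and Ctsb, proteases of the lysosome, were at 4289.7 against 2670 CPM (0.68 ± 0.07) and 3992 against 2542 CPM (0.65 ± 0.08), Grn, which encodes progranulin, at 2565 against 1486 CPM (0.79 ± 0.08), and Lgmn, the asparaginyl protease legumain, at 3386 against 2088 CPM (0.70 ± 0.11). Lipa, the acid lipase, was at 186 against 102 CPM (0.87 ± 0.08), and Fabp5, a fatty acid carrier, at 163 against 50.9 CPM (1.68 ± 0.18). Cd9, a tetraspanin, was lower at 55.5, 43.2, 30.8 and 42.9 CPM in the MC38 libraries and 197, 192, 204 and 208 CPM in the LLC libraries (log2 difference -2.21 ± 0.13 (SE), adjusted p = 1.39e-12), as was Mitf, a factor of lysosomal genes, at 23.6 against 52 CPM (-1.14 ± 0.11). In the iron list 5 of 16 members tested were higher and 1 lower, or 2 lower with only the macrophage groups in the model. The ferritin chains Fth1 and Ftl1, which store iron, were at 5938 against 3229 CPM (0.88 ± 0.09) and 4325 against 3009 CPM (0.52 ± 0.09), and the heme breakdown enzymes Blvra and Blvrb at 62.9 against 43.6 CPM (0.53 ± 0.08) and 69.1 against 42 CPM (0.72 ± 0.10).

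Glycolysis and hypoxia genes were lower. In that list 3 of 35 members tested were higher and 22 lower (median -0.45). Slc16a3, a lactate exporter, stood at 164, 139, 133 and 125 CPM in the MC38 libraries and 322, 372, 304 and 385 CPM in the LLC libraries (log2 difference -1.3 ± 0.11 (SE), adjusted p = 1.03e-09). Egln3, an oxygen sensor induced by hypoxia, was at 12.8 against 60.3 CPM (-2.23 ± 0.19), Gpi1, glucose phosphate isomerase, at 482 against 779.6 CPM (-0.69 ± 0.08), Aldoc, an aldolase, at 8.76 against 23.6 CPM (-1.42 ± 0.15), Pdk1, which restrains entry of pyruvate into mitochondria, at 61.6 against 103 CPM (-0.73 ± 0.09), and Ankrd37, a known hypoxia target, at 6.54 against 33.5 CPM (-2.35 ± 0.18). Slc2a3, a glucose transporter, was among the 3 that were higher, at 4.81 against 3.09 CPM (0.63 ± 0.22). It did not pass without LLC replicate 2 or 4 or MC38 replicate 2 (adjusted p = 0.0674, 0.0764 and 0.0631). The other 2 were Pfkfb3 and Car9, named after their values were seen. Without LLC replicate 4, and without MC38 replicate 2, 1 member was called higher.

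Genes of protein folding stress were more often higher. In the ATF4 and unfolded protein response list 20 of 31 members tested were higher and 3 lower (median 0.40). Hspa5, the endoplasmic reticulum chaperone BiP, was at 1326 ± 39.1 CPM against 1024 ± 73 CPM (SD, n = 4 each; log2 difference 0.37 ± 0.07 (SE), adjusted p = 7.77e-05). Herpud1, Creld2, Manf and Dnajb11, further genes of this response, differed by 0.81, 0.81, 0.58 and 0.48, whereas Ern1, the stress sensor IRE1 alpha, was lower at 23.6 against 43.3 CPM (-0.87 ± 0.14). Among immediate early and heat shock genes, which can respond to tissue dissociation, 3 of 26 members tested were higher and 9 lower (median -0.27). Hspa1a, an inducible heat shock protein, was at 409.8, 919, 407 and 566 CPM in the MC38 libraries and 1325, 1249.5, 1892 and 1228 CPM in the LLC libraries (log2 difference -1.31 ± 0.37 (SE), adjusted p = 0.00755), and Nr4a1 at 406 against 975 CPM (-1.26 ± 0.11), while Egr1 was higher at 224 against 82.9 CPM (1.43 ± 0.38) and Ier5 at 455 against 277 CPM (0.72 ± 0.12). The number called lower was 5 without LLC replicate 3 and 4 without MC38 replicate 3.

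**Figure D4:**
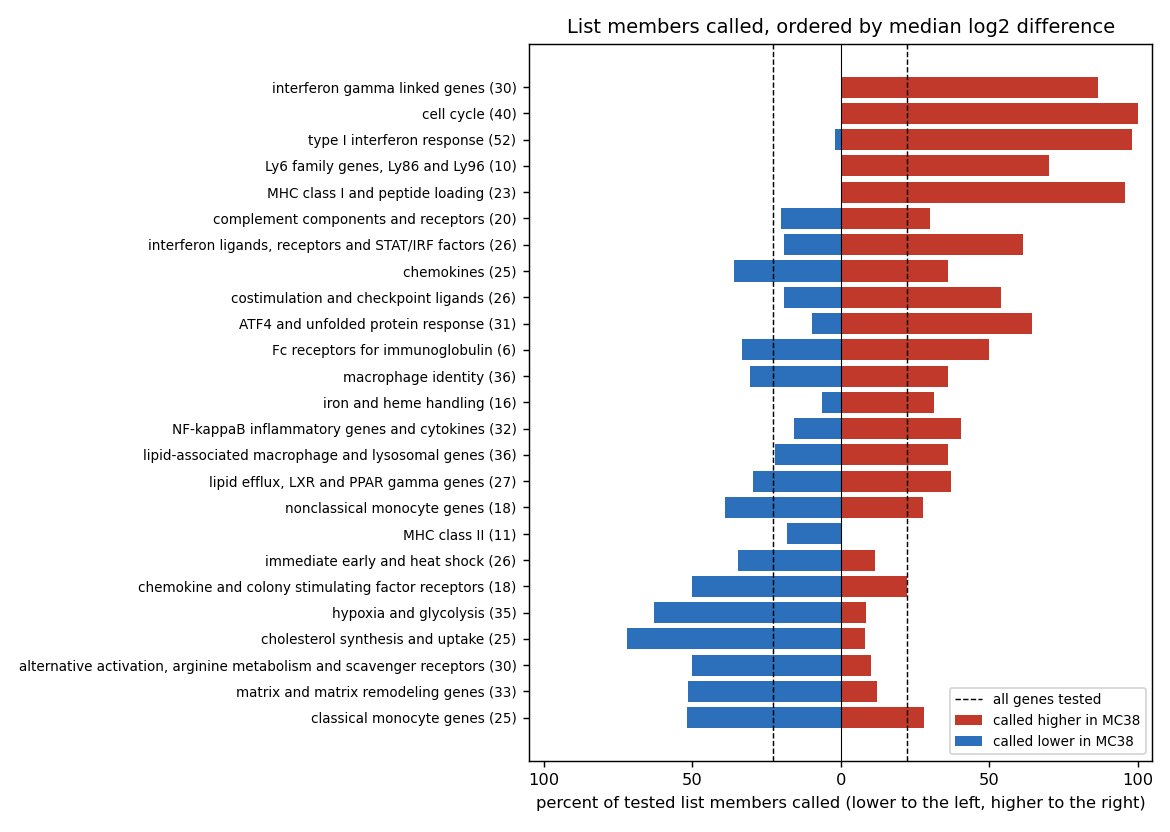
The share of tested members called higher (right, red) or lower (left, blue) in MC38 macrophages is shown in percent for 25 gene lists ordered by median log2 difference, with the number tested in parentheses. Dashed lines mark the shares over all 13200 genes, 22.4% higher and 22.9% lower, which the interferon, class I and cell cycle lists pass to the right and the cholesterol and glycolysis lists to the left.

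Genes of monocytes were lower more often than higher. Among genes typical of classical monocytes, 7 of 25 members tested were higher and 13 lower (median -0.79). Lyz2, lysozyme M, stood at 1386, 1370.5, 1282 and 1238 CPM in the MC38 libraries and 6934, 6335, 6938 and 6713 CPM in the LLC libraries (log2 difference -2.35 ± 0.10 (SE), adjusted p = 3.98e-15). S100a4, a calcium-binding protein, was at 137 against 755 CPM (-2.47 ± 0.14). Members of the MS4A and Ly6 families went the other way, with Ms4a4c at 732 against 182 CPM (2.01 ± 0.08) and Ly6c2, whose reads may be shared with its near-identical neighbor Ly6c1, at 69.5 against 17.9 CPM (1.97 ± 0.22). In the nonclassical list 5 of 18 members tested were higher and 7 lower (median -0.02). Cd300e was at 241 against 32.9 CPM (2.87 ± 0.17) and the leukosialin gene Spn at 207 against 84.3 CPM (1.3 ± 0.09), against Klf2, a quiescence factor, at 99.9 against 365 CPM (-1.87 ± 0.17) and Adgre4 at 3.51 against 14.8 CPM (-2.06 ± 0.18).

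Ly6a, which encodes Sca1, the antigen of the monocyte gates, stood at 895, 881, 880.1 and 626 CPM in the MC38 libraries and 132, 87, 161 and 184 CPM in the LLC libraries. Macrophages had no such gate, and their groups did not overlap (log2 difference 2.54 ± 0.55 (SE), adjusted p = 0.000789). The difference was smaller than the 5.57 between the gated monocytes (1734 against 36.5 CPM), with an interaction term of -3.03 ± 0.75 (adjusted p = 0.00983), where the gate itself chose the monocytes by this antigen. Of 8 Ly6 family genes tested 6 were higher and 0 lower. Ly6e was at 2142 against 875 CPM (1.29 ± 0.09) and Ly6i at 20.3 against 3.46 CPM (2.59 ± 0.24). The list also held 2 genes outside the family, Ly86 and Ly96, which encode the MD-1 and MD-2 partners of RP105 and TLR4. Ly86 was at 391 against 189 CPM (1.05 ± 0.09), which brings the list to 7 of 10, and Ly96, named after its value was seen, did not pass.

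Single genes outside these lists had some of the largest differences. Fgl2, a fibrinogen-like protein that can cleave prothrombin, stood at 901, 1006, 1049 and 1029 CPM in the MC38 libraries and 42.5, 43.8, 51.1 and 60.7 CPM in the LLC libraries (log2 difference 4.33 ± 0.14 (SE), adjusted p = 2.82e-17). Fcrl5, an Fc receptor-like protein best known on B cells, was at 89.1 ± 6.97 CPM against 0.711 ± 0.347 CPM (SD, n = 4 each; log2 difference 7.05 ± 0.38 (SE), adjusted p = 3.46e-12). Gpr31b was at 41.6 against 1.19 CPM (5.11 ± 0.37), Tmem26 at 57.2 against 2.49 CPM (4.49 ± 0.25), the lectin-like receptor gene Klra17 at 18.3 against 0.64 CPM (4.86 ± 0.32) and Il12rb1, a receptor chain for interleukin 12, at 20.8 against 1.43 CPM (3.88 ± 0.30). Cp, the copper oxidase ceruloplasmin, was at 17.2 against 0.877 CPM (4.28 ± 0.66), and the receptor phosphatase Ptprm at 15 against 0.815 CPM (4.21 ± 0.66). Fgl2, Fcrl5, Gpr31b, Tmem26, Klra17 and Il12rb1 were higher in all 4 MC38 libraries than in any LLC library. Lack of overlap was a condition for naming the largest rises, so it is no separate result. It held for 43.8% of all genes tested.

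Leukotriene enzymes were among the largest falls. Alox5, 5-lipoxygenase, which makes the precursor of leukotrienes, stood at 2.47, 4.43, 1.31 and 4.59 CPM in the MC38 libraries and 87.8, 83.5, 89 and 74.7 CPM in the LLC libraries (log2 difference -4.67 ± 0.26 (SE), adjusted p = 2.45e-12). Ltc4s, leukotriene C4 synthase, was at 1.83, 3.04, 1.79 and 1.79 CPM in the MC38 libraries and 29.3, 27.9, 32.3 and 33.3 CPM in the LLC libraries (log2 difference -3.85 ± 0.54 (SE), adjusted p = 6.92e-06). Fam20a, a pseudokinase of the secretory pathway, was at 1.26 against 41.6 CPM (-5.01 ± 0.23), the sialyltransferase St6gal1 at 6.54 against 108 CPM (-4.04 ± 0.13), the glycosyltransferase Galnt9 at 0.512 against 12.1 CPM (-4.53 ± 0.22), the receptor kinase Epha2 at 1.29 against 29.5 CPM (-4.52 ± 0.38), the homeodomain gene Hopx at 3.9 against 58.9 CPM (-3.91 ± 0.17), the organic anion transporter Slco2b1 at 2.47 against 35.1 CPM (-3.81 ± 0.66) and Cd24a, the anti-phagocytic surface protein CD24, at 2.68 against 30.6 CPM (-3.49 ± 0.25). In CPM, cytoskeletal genes were also among the 10 largest falls, with Actb, beta actin, at 10251 against 12891 CPM (-0.33 ± 0.10), Flna, filamin A, at 1023 against 2505 CPM (-1.29 ± 0.09) and Ahnak, a giant scaffold protein, at 461 against 2089.9 CPM (-2.18 ± 0.12), and so was Lrp1, an endocytic receptor, at 637 against 2503 CPM (-1.98 ± 0.14). The Actb difference did not pass without MC38 replicate 1 or 2 (adjusted p = 0.052 and 0.0537; 0.000786 to 0.0537 over the alternatives).

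Some of these genes are also markers of other cells. Cdh1, which encodes E-cadherin, an adhesion protein of epithelium that alternatively activated macrophages can also make, stood at 7.88, 6.64, 5.38 and 5.85 CPM in the MC38 libraries and 90.6, 89.2, 96.6 and 139.9 CPM in the LLC libraries (log2 difference -4.01 ± 0.30 (SE), adjusted p = 9.64e-10). Of 13 epithelial markers 4 were tested and all 4 were lower, and their sum over 13 was 6.27 to 8.32 CPM in MC38 and 92.4 to 144.7 CPM in LLC libraries, nearly all of it Cdh1. Krt8 and Krt18, keratins of simple epithelium, were at 0.05 against 1.26 CPM and 0.03 against 1.73 CPM. Of 10 endothelial markers 5 were tested, 2 were higher and 1 lower. Their sum came mostly from Pecam1, which encodes CD31 and is also made by myeloid cells, at 101 against 17.7 CPM, and Kdr, a VEGF receptor, at 62.8 against 6.04 CPM, while Cdh5 was at 2.5 against 2.3 CPM. Of 17 T and NK cell markers 13 were tested, 7 were higher and 1 lower, with a sum of 66.0 to 90.5 against 12.8 to 20.3 CPM, mostly Klrk1, which encodes NKG2D (64.6 against 10.7 CPM). Of 7 B cell markers Cd79b was the only one called (29.7 against 3.8 CPM, 2.98 ± 0.17), with Cd79a at 0.119 against 0.167 CPM and Ms4a1 at 0.369 against 0.145 CPM. Neutrophil markers summed to 152.8 to 193.1 against 97.4 to 111.3 CPM, mostly Csf3r. Of 14 fibroblast and mesenchymal markers tested 3 were higher (21.4%, against 22.4% of all genes tested) and 0 lower. They summed to 34.2 to 45.4 CPM in MC38 and 16.7 to 25.6 CPM in LLC libraries. The part of other cells in the interferon, class I and matrix differences was not tested beyond these levels.

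The differences between tumors were then set beside those of the monocytes. In monocytes 3538 genes were higher on the MC38 side and 2911 lower, 48.9% of all genes. Of the 5980 genes called in macrophages, 4082 were called in the same direction in monocytes, 68.3% of the macrophage calls and 63.3% of the monocyte calls. Another 156 were called in opposite directions, and 1742 were called in macrophages and not in monocytes. A test of the difference itself called 825 genes more positive and 1091 more negative in macrophages, 14.5% of all genes. The monocyte groups differed in the sort on Sca1 as well as in tumor, and the macrophages had no such gate. In every interaction term cell type and that sort therefore cannot be told apart. Which direction held more calls turned with the processing. The split was 993 against 932 with the stricter filter on low counts, 746 against 698, 741 against 702, 673 against 657 and 740 against 718 without LLC monocyte replicate 1, 3 or 4 or MC38 monocyte replicate 4, and 773 against 1417 with upper quartile scaling. The monocyte split turned to 2838 higher against 3045 lower with the stricter filter, and lower calls also outnumbered higher ones without any 1 of the 4 LLC monocyte libraries (2793 against 2936 without replicate 1) and without MC38 monocyte replicate 4 (2819 against 2835). The libraries of the macrophages and monocytes are separate, but the labels do not say whether they came from the same tumors.

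**Figure D5:**
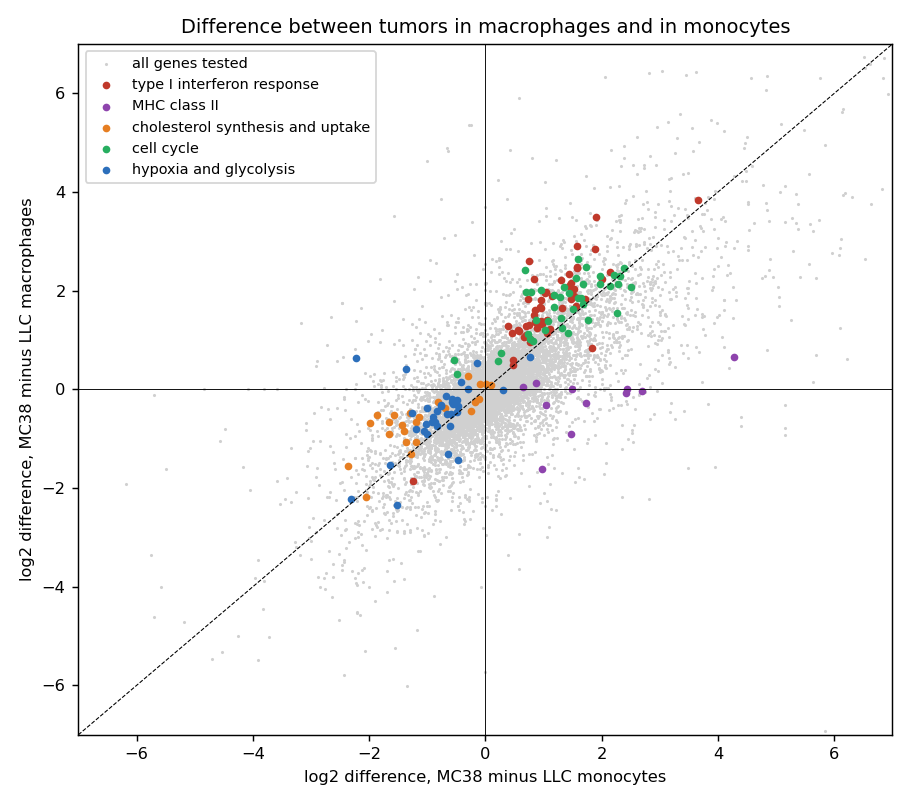
The log2 difference MC38 minus LLC in macrophages (vertical axis) is plotted against that in monocytes (horizontal axis) for all genes tested, with members of 5 lists in color, a dashed line of equal differences, and axes cut at 7, beyond which 17 genes lie. Type I interferon and cell cycle members lie mostly to the upper right and cholesterol and glycolysis members mostly to the lower left. Class II members lie above 0 on the monocyte axis. On the macrophage axis they run from -1.61 to 0.67, with a median of -0.04.

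Genes with the largest shift toward MC38 in macrophages included Fgl2, with an interaction term of 2.59 ± 0.18 (adjusted p = 5.54e-10), Klra17 (2.7 ± 0.42), and Clec4b1, a C-type lectin at 17.8 against 2.48 CPM in macrophages and 2.15 against 1.67 CPM in monocytes (2.49 ± 0.32). For Ccl24 and Cxcl3 the term was positive (4.28 and 2.59), with monocytes at 0.894 against 65.2 CPM and 10.8 against 194 CPM. Rnf144a, a ubiquitin ligase gene, was higher in MC38 macrophages (4.8 against 1.81 CPM) and lower in MC38 monocytes (6.67 against 14.7 CPM; 2.56 ± 0.19). The hepatocyte growth factor receptor Met went the same way (13.1 against 5.93 CPM in macrophages, 55.3 against 120.4 CPM in monocytes), as did the transcription factor Ets1 (16.1 against 9.86 CPM and 27.7 against 57.1 CPM) and Spn (37.2 against 58.6 CPM in monocytes). These 3 had terms of 2.26, 1.74 and 1.96.

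In the other direction, Nes, the intermediate filament nestin, was lower in MC38 macrophages (5.68 against 18.8 CPM) and higher in MC38 monocytes (7.63 against 1.83 CPM; -3.76 ± 0.68). Cdk18, a cyclin-dependent kinase (3.9 against 13.5 CPM and 7.05 against 2.33 CPM), Pdgfb, a platelet-derived growth factor chain (103 against 164 CPM and 47.9 against 20.4 CPM), Timp2, an inhibitor of matrix proteases (144 against 252 CPM and 70.1 against 33.8 CPM) and Hsd3b7, an enzyme of bile acid synthesis (44.3 against 70.8 CPM and 50.4 against 26.4 CPM), showed the same crossing. Their terms were -3.39, -1.91, -1.87 and -1.61. Tlr12, a receptor for profilin of parasites, was higher on the MC38 side in both cell types, at 14.8 against 1.38 CPM in macrophages and 7.26 against 0.032 CPM in monocytes, and its term was -4.11 ± 0.95. The adhesion-linked gene Ctnnd2 did likewise (-3.01), and Dbn1, the actin-binding drebrin, was lower in MC38 macrophages (4.64 against 26.8 CPM) and stood at 5.75 against 4.78 CPM in monocytes (term -2.8, adjusted p = 0.0144).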

How the data were processed

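RNA of 34 libraries was sequenced from strand-specific mRNA libraries, per the labels' protocols. The authors deposited estimated counts per gene (expected counts, of which 14.62% of values are not whole). CASAVA 1.8.2 and the build GRCm38/mm10 are named per the submitters' processing notes, and no aligner or counter is named (not given in the sources used here). Samples were grouped by title, since the tumor field of the MC38 libraries counts upward (MC43 and the like). The values were rounded, which changed totals by at most 0.000356%, and a test planned for whole counts was kept. All 24 in vivo libraries entered 1 edgeR 4.0.16 quasi-likelihood fit (R 4.3.3; TMM, filterByExpr, robust; 13200 genes tested), with contrasts between tumors in macrophages and in monocytes and their difference (interaction term). Adjusted p-values are Benjamini-Hochberg over all genes tested, called under 0.05, and the SE was taken from the log2 difference and the F statistic. Levels are CPM on TMM-scaled library sizes (factors 1.03 to 1.08 in macrophages). The fit was tested on simulated data.

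Names, positions and promoter windows come from RefSeq GRCm38.p6, with 24375 of 24475 identifiers matched (the other 100 hold 1.43% of counts). The members and gene lists were chosen with earlier results of these data known. Named genes were the 15 largest called rises and falls above a floor of 10 CPM in one group, the 10 largest CPM differences each way (both without overlap of libraries), up to 6 per list by adjusted p, up to 4 per marker list by level, 8 per direction of the interaction and of opposite calls, and Ly6a, Fn1 and Irf7, passing over predicted gene models and sex transcripts, with exceptions stated. Some genes are not reported here. Alternatives were other scalings, filters, DESeq2 1.42.0, only the groups compared, a replicate block and leaving out libraries. The macrophage libraries held 14579232 to 24600975 counts, which sets the counting error of low genes.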

Additional observations from a re-analysis of the deposited data

Results flagged for a closer look

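In 36 of 408 groups of 4 libraries (each named gene in each macrophage group), 1 library lay far from the other 3 by Dixon's test at its 95% limit. Chance alone flags about 1 in 20 such groups. The values are CPM. LLC replicate 2 was high for Car3 (9.61), Cd24a (36), Fn1 (11679.5) and Ifng (0.138). LLC replicate 2 was low for Cfb (99.3) and Ddx58 (79.96). LLC replicate 3 was high for Hspa1a (1892) and Klra17 (0.994). LLC replicate 3 was low for Mertk (43.6) and Met (3.84). LLC replicate 4 was high for Arl4c (508), C3 (155), Ccl24 (29.1), Cd274 (125), Cdh1 (139.9), Ebi3 (29.2) and Hsd3b7 (82). LLC replicate 4 was high for Nr4a1 (1066) and Pecam1 (29.5). MC38 replicate 1 was high for Aldoc (11), Krt18 (0.119), Pramel13 (0.916) and Sqle (13.7). MC38 replicate 2 was high for Cmpk2 (246), Ltc4s (3.04), Vcan (19.8) and Xaf1 (156). MC38 replicate 2 was low for C1qa (2717) and Klf4 (185). MC38 replicate 3 was high for Fcgrt (78.1). MC38 replicate 3 was low for Mmp9 (5.26). MC38 replicate 4 was high for B2m (4983) and Car3 (43.6). MC38 replicate 4 was low for Hsd3b7 (39.5), Lgals9 (256) and Ly6a (626). 

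For 101 named genes the difference between the tumors was not the same size in macrophages and monocytes, by the interaction term in edgeR (adjusted p under 0.05). The values are the log2 difference in macrophages minus that in monocytes, whose groups also differed in the sort on Sca1. It was more negative in macrophages for Tlr12 (-4.11), Nes (-3.76), Cdk18 (-3.39), Ly6a (-3.03), Ctnnd2 (-3.01), Dbn1 (-2.8), H2-Eb1 (-2.74), H2-Ob (-2.58), H2-Ab1 (-2.49), Ltc4s (-2.44), Ciita (-2.39) and Galnt9 (-2.32). Next in size came Epha2 (-2.32), Alox5 (-2.16), Cd74 (-2.0), Pdgfb (-1.91), Timp2 (-1.87), Hopx (-1.81), Hsd3b7 (-1.61), Slc7a2 (-1.59), Irf4 (-1.44), Ccr2 (-1.41), Trem1 (-1.32) and Klf2 (-1.31). Then came Klf4 (-1.3), St6gal1 (-1.28), Cd300e (-1.12), Cd24a (-1.06), Lrp1 (-1.0), Aldoc (-0.94), S100a4 (-0.94), Adgre4 (-0.94), F10 (-0.88), Ankrd37 (-0.83), Fn1 (-0.79) and Lyz2 (-0.77). Further along came Csf2ra (-0.76), Fcgr2b (-0.74), Nr4a1 (-0.70), Slc16a3 (-0.65), Cd80 (-0.62), Ifngr1 (-0.61), Cd9 (-0.57), Arl4c (-0.54), Cd40 (-0.53), Csf1r (-0.39) and Ctss (-0.31). It was more positive in macrophages for Ccl24 (4.28), Slc2a3 (2.86), Klra17 (2.7), Cxcl3 (2.59), Fgl2 (2.59), Rnf144a (2.56), Clec4b1 (2.49), Ppbp (2.41), Fpr2 (2.38), Fpr1 (2.3), Met (2.26) and Cd79b (2.04). Next in size came Il10 (2.0), Spn (1.96), C3 (1.91), Cmpk2 (1.84), Mmp9 (1.8), Tmem26 (1.77), Ets1 (1.74), Prc1 (1.73), Vcam1 (1.39), Il15 (1.23), Ifi204 (1.1) and Aurkb (1.06). Then came Fabp5 (1.0), Gbp9 (0.98), Tnfsf10 (0.95), Ifi211 (0.94), Oas3 (0.93), Sqle (0.80), Fcgr4 (0.76), Ms4a4c (0.75), Fdft1 (0.74), Gbp3 (0.73), Ddx58 (0.69) and Irgm2 (0.68). Further along came Irgm1 (0.62), Herpud1 (0.60), Manf (0.60), Scd2 (0.59), Ly6e (0.59), Creld2 (0.55), F13a1 (0.55), Csf3r (0.54), Xaf1 (0.52), Ifih1 (0.49), Nlrc5 (0.47) and H2-T23 (0.46). After these came Cd47 (0.41), Itgam (0.39), Lipa (0.37), Parp9 (0.32), Rxra (0.32) and Hspa5 (0.32).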

How the results depend on the processing

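The count of genes called in macrophages was 5980 and stayed within 1.5 times of that under every alternative run. It was 5392 to 5651 with 1 macrophage library left out at a time and 5481 to 6630 under the others, namely DESeq2, RLE or upper quartile scaling, no filter or a stricter one on low counts, only the groups compared, a replicate block, and the fit without fat-marked spleen libraries. The fat-marked libraries were MC38 spleen monocyte replicates 1, 2 and 3. They entered the main fit and its shared spread, and the MC38 spleen means above include them. Without them 6630 genes were called in macrophages and 2461 for the difference between the cell types, against 5980 and 1916 in the main fit. For monocytes the ranges were 5508 to 5926 and 5883 to 7212, and for the difference between the cell types 1330 to 1843 and 1722 to 2649. The share of calls in the positive direction was 48.1% to 50.9% in macrophages, 48.2% to 58.9% in monocytes and 35.3% to 51.7% for the difference. Over 203 named genes no called difference reversed in 3229 checks; 8 lost and 6 gained a call. Of those not given above, Fcgrt passed without the fat-marked spleen libraries (adjusted p = 0.0467). Ccl24 also missed with only the groups compared (adjusted p = 0.0696). DESeq2 gave no adjusted p for Ly6a, Cd72, C1qa, C1qb and C1qc. List counts moved by over 1.5 times in 25 of 800 checks.

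The replicate numbers of the labels were not taken as pairs, since no pairing of groups had every correlation of deviations above 0.1. Same-numbered MC38 and LLC macrophage libraries had 0.062, 0.049, 0.146 and -0.157, and 2 of 4 correlated best with their own number. MC38 macrophages with MC38 monocytes had 0.117, 0.07, -0.014 and 0.148, LLC macrophages with LLC monocytes -0.027, 0.154, 0.062 and 0.05, and the monocytes of both tumors 0.065, 0.045, -0.049 and 0.075, with 3 of 4 best with their own number in each, a hint from the data and not the design. With the replicate block 5992 genes were called in macrophages, 5859 of them shared with the fit without it, 6445 in monocytes and 1974 for the difference. On simulated counts, 58.2% of genes changed 1.5-fold were recovered in the macrophage comparison and 29.9% for the difference. Small changes can thus be missed at this depth and number of libraries. In the simulation 12872 of 13072 genes were unchanged, whereas 45.3% were called in the macrophage data. The adjustment of p-values depends on that share, so the recovery in the data may differ.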

Other observations

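Several genes without a count in any LLC macrophage library had low levels in MC38 macrophages and in MC38 monocytes. These genes were chosen after their values were seen, and each is called in macrophages. Shisal2b had 310 counts over the 4 MC38 macrophage libraries (3.34 CPM) and 0 in LLC, at least 90.4-fold higher against 3 counts over the group. Prl2c2, a prolactin family gene of placenta, had 257 counts and 0 (at least 75-fold). Pnma5, the germ line gene Morc1 and Pramel13 had 73, 61 and 53 counts, and 0 each in LLC. In MC38 monocytes the levels were 3.12, 3.38, 1.07, 0.732 and 0.583 CPM in that order, with 0 in LLC monocytes, while the highest mean of a spleen group was 0.103 CPM, for Shisal2b. Where the transcripts came from was not tested. In the other direction, the predicted gene models Gm7367 and Gm5424 had 0 and 1 counts over the MC38 macrophage libraries and 3937 and 3157 over the LLC libraries. Such models were passed over in naming genes, since they can share reads with near-identical copies.

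Differences also leaned with transcript length. The length of a gene was that of its longest GENCODE transcript, found for 12604 genes (95.5% of those tested). These genes were split into 4 bins of near-equal size from the shortest to the longest. The median log2 difference was 0.09, 0.03, -0.01 and -0.10 in that order. The share called lower in MC38 macrophages was 15.8%, 21.9%, 24.3% and 31.4%. Ribosomal protein genes had a median of -0.18 over 82 genes and 24 of them lower against 2 higher.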
